A study of Mus musculus with 20 samples.

Results

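The transcripts described here encode the subunits of cohesin, the ring-shaped protein complex that holds sister chromatids together, and were followed in the developing mouse testis. The 9 subunit genes considered are Rec8, Rad21, Rad21l, Smc1a, Smc1b, Smc3, Stag1, Stag2 and Stag3. All probe sets annotated with 1 of these symbols were taken. They cover 8 of the 9 genes with 19 probe sets, out of 18193 genes with a single symbol on the array. Rad21l is not analysed here. The samples are 20 arrays of total RNA from postpartum mouse testis, 2 for each of 10 ages: the day of birth (day 0), days 3, 6, 8 and 10, days 14, 18 and 20, and days 30 and 35. The labels name no treatment, genotype or strain, and nothing says that the 2 arrays of a day came from separate animals, so every p-value reflects array-to-array spread, which may be technical. All 19 probe sets passed the filter on dim signals, and 37292 probe sets were tested in all.

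Cohesin is built from a pair of SMC proteins that form the ring's arms, a kleisin that closes it, and a STAG (SA) protein bound to the kleisin. Dividing somatic cells and spermatogonia use the mitotic set, with RAD21 as kleisin, SMC1A beside SMC3, and STAG1 or STAG2. Germ cells that enter meiosis make the meiotic paralogs REC8, RAD21L, SMC1B and STAG3, which hold chromatids and form the axes on which homologous chromosomes pair and recombine. SMC3 belongs to both sets. In the first wave of spermatogenesis after birth, germ cells advance in near synchrony, so the postnatal testis gains spermatogonia, then spermatocytes, then spermatids.

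The promoters of the 3 meiotic genes and of 2 of their mitotic paralogs are shown because from day 0 to day 35 the meiotic genes and Smc1a went opposite ways, while members of both sets hold the same letters near the start site. Each is the RefSeq window of 250 bases before and 50 bases after the gene's start in GRCm38.p6, 5′ to 3′ on the gene's strand. 7 of the 9 genes had an entry in that table. Capitals mark the letters found for 4 motifs, searched on both strands: TTCCCGC (E2F-type), CACGTG (E-box), TGACGTC (CRE) and TAACNG (MYB-type). The windows are Rec8 at chr14:55617916-55618215 on the plus strand, Smc1b at chr15:85131908-85132207 on the minus strand, Stag3 at chr5:138280259-138280558 on the plus strand, Smc1a at chrX:152016178-152016477 on the plus strand and Stag1 at chr9:100643198-100643497 on the plus strand.
Rec8: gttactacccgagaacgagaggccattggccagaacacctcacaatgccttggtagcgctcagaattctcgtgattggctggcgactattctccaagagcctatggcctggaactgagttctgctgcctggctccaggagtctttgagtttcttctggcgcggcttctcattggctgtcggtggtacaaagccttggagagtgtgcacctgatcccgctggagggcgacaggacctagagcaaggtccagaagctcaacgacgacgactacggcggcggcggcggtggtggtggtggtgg
Smc1b: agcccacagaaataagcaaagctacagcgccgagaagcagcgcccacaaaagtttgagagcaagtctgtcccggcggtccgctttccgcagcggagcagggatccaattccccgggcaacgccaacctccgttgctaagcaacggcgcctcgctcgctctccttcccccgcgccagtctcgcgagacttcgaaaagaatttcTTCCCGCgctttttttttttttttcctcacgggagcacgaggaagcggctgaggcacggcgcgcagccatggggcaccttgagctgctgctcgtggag
Stag3: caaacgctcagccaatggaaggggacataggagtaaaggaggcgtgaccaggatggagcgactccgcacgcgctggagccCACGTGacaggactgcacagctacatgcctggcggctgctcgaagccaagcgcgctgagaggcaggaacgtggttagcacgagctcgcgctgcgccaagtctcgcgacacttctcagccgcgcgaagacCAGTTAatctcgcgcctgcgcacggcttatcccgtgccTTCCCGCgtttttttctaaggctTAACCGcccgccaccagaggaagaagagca
Smc1a: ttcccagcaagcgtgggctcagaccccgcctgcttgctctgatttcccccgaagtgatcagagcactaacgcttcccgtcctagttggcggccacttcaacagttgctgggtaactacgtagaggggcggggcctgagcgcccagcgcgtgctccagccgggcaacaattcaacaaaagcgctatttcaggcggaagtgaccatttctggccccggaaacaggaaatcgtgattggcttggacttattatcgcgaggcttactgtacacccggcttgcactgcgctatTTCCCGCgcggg
Stag1: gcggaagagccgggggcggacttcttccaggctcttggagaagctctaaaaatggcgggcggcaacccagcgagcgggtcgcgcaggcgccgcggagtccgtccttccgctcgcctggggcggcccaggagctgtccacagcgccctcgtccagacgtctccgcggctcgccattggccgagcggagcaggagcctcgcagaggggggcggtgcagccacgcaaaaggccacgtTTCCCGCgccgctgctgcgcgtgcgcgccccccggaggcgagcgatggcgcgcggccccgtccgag

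The E2F-type letters were present in 4 of the 7 windows, against 4.6% of 32851 promoters of the same length. Counted so that the first transcribed base is 1, they began at position -48 in Smc1b, -3 in Stag3, -16 in Stag1 and 39 in Smc1a. Both meiotic and mitotic genes therefore held them, and the Rec8 window held none of the 4 motifs. The windows of Smc3 and Rad21l, which are not printed, held none either. The Stag3 window also held the E-box at -170, which is found in 7.15% of promoters, and MYB-type letters at -41 and 21, found in 23.3%. The CRE letters were in 0 of the 7 windows and in 3.21% of all promoters. These matches are a description of the sequence and show nothing about binding.

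Every array had been scaled to the same 2% trimmed mean of 125.0, and array medians ran from 29.4 to 43.4 intensity units. The arrays of a day correlated with r from 0.934 (day 30) to 0.981 (day 6). The lowest values differed in level between early and late days, with the 10th percentile of an array at 1.71 to 2.27 on days 0 to 14 and 5.09 to 7.88 on days 18 to 35. The array titled day 18 replicate 2 carries day 0 in another label. It correlated with the other day 18 array at r = 0.958 and with day 0 arrays at 0.786 at most, and was kept under its title. The 40th percentile of an array, the line used for calling a signal dim, lay between 16.7 and 30.3.

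Germ cell and somatic markers moved with the age of the testis, as summed intensities over fixed lists. The 8 spermatogonial markers summed to 1847 to 1938 on day 0 and 5082 to 5409 on day 8. Of these, 7 of 8 were higher, beside 2.45% of all probe sets. The 6 spermatocyte markers summed to 253 to 263 on day 8, 4828 to 6060 on day 14 and 17637 to 17929 on day 20. From day 8 to day 14, 6 of 6 were higher, beside 3.86% of all probe sets. The next interval, to day 20, had 5 of 6 higher, beside 14.7%. The 5 round spermatid markers went from 785 to 904 on day 14 to 8492 to 8808 on day 20. The 5 elongating spermatid markers went from 265 to 305 on day 20 to 39881 to 45206 on day 35. The 7 Sertoli cell markers went from 9834 to 9993 on day 14 to 5975 to 6140 on day 20. In that interval 3 of 7 were lower, beside 12% of all probe sets. Over days 0 to 35 the Sertoli markers were split, with 4 of 7 lower and 2 higher. The 11 markers of dividing cells measured summed to 12699 to 13285 on day 0, 9929 to 10589 on day 14 and 6755 to 7147 on day 35. On day 35, 6 of 11 were lower than on day 0, beside 28.2% of all probe sets. The part of these shifts in cell content in the cohesin results was not tested, and in tissue RNA fewer cells of a type cannot be told apart from less RNA per cell.

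Over the whole time course, 17 of the 19 cohesin probe sets changed (limma's moderated F test, with a Benjamini-Hochberg adjusted p below 0.05 and a 2-fold span of the day means), beside 73.1% of all probe sets tested. The pair that did not pass were Smc1a 1417832_at (adjusted p = 0.0742) and Smc3 1450951_at (adjusted p = 0.0786). The count was 17 as well without the day 18 array of conflicting label. From day 0 to day 35 all 3 meiotic probe sets were higher, beside 22.9% of all probe sets. Of the 14 mitotic ones 10 were lower, beside 28.2%. The mitotic ones not called were Rad21 1416162_at (-0.25) and Stag1 1431921_a_at (-0.98), 1421939_a_at (-0.59) and 1421940_at (-0.82). Differences below are later minus earlier day on the log2(intensity + 7.83) scale with the standard error of the fit, and a call needed an adjusted p below 0.05 with a difference of 1 or more in size.

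**Figure D1:**
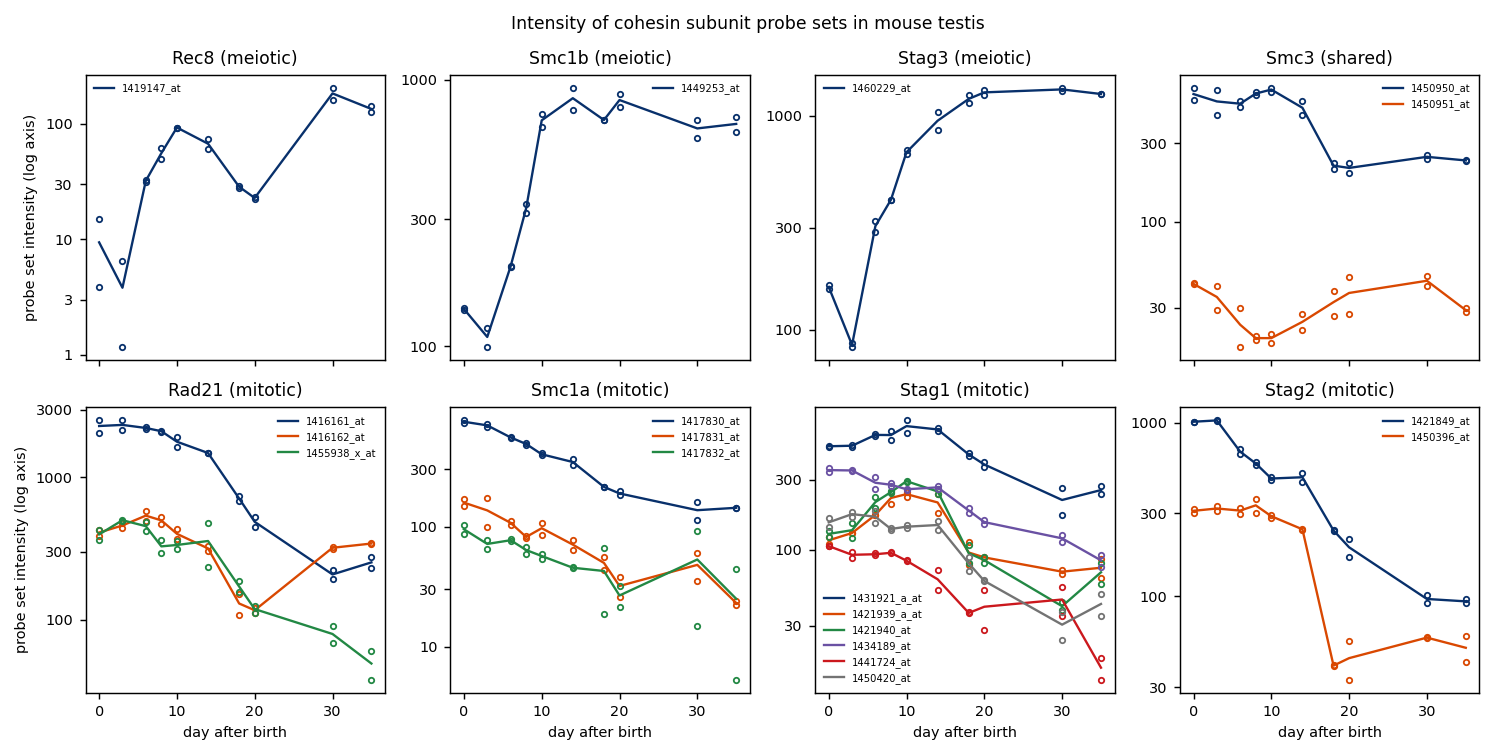
Intensity (log axis) of each of the 19 cohesin probe sets against day after birth, with 1 panel per gene; open circles are single arrays and lines join the means of the 2 arrays of a day. The meiotic genes climb from day 3, and Rec8 dips to 22.8 on day 20 before its highest level on day 30. The mitotic genes and Smc3 1450950_at are lower on day 20 than on day 14. Smc1a 1417830_at and Stag2 1421849_at already decline before day 14, and Rad21 1416162_at is higher again on day 30.

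REC8 is the meiotic kleisin, which separase cleaves on chromosome arms at the first meiotic division and at centromeres at the second. Rec8 1419147_at read 3.88 and 15.0 on day 0, 1.17 and 6.46 on day 3, 32.7 and 31.6 on day 6, 49.6 and 61.9 on day 8, and 93.0 and 92.9 on day 10. It then read 60.7 and 74.0 on day 14, 29 and 28.1 on day 18, and 23.5 and 22.2 on day 20. The last days gave 207 and 161 on day 30, and 126 and 143 on day 35. The profile therefore had 2 crests, at day 10 (mean 93.0) and day 30 (mean 184), which were under 2-fold apart. Every day 18 and day 20 array was below every array of day 6 to 14 and of day 30 and 35. The gap between day 6 and day 18 was only 0.14 ± 0.31 (adjusted p = 0.734) and was not called.

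Rec8 rose by 1.95 ± 0.31 from day 0 to day 8 (3.87-fold, adjusted p = 0.000156). Its sharpest early step was from day 3 to day 6 (1.82 ± 0.31, adjusted p = 0.00101). It fell by 1.29 from day 14 to day 20 (2.44-fold lower, SE 0.31, adjusted p = 0.00188) and rose by 2.21 ± 0.31 from day 20 to day 35 (4.64-fold, adjusted p = 9.52e-06). Days 30 and 35 did not differ past the threshold (0.42 ± 0.31, adjusted p = 0.476), nor did days 10 and 14 (0.43 ± 0.31, adjusted p = 0.525). Both arrays of days 0, 3 and 20 lay at or below the 40th percentile, so the Rec8 folds depend on how low values are treated. With values floored at the pooled median, the rise to day 8 was 0.68, the step from day 3 to day 6 was 0 and the difference from day 14 to day 20 was -0.96, none of them called.

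SMC1B is the meiotic partner of SMC3. Smc1b 1449253_at read 137 and 139 on day 0, 99.4 and 117 on day 3, 200 and 199 on day 6, 316 and 343 on day 8, and 743 and 666 on day 10. From day 14 on it read 935 and 770, then 704 and 709 on day 18, 791 and 888 on day 20, 709 and 604 on day 30, and 638 and 728 on day 35. All arrays from day 10 on were above all arrays up to day 8.

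Smc1b rose by 1.21 ± 0.12 from day 0 to day 8 (2.31-fold, adjusted p = 4.98e-07) and by a further 1.35 ± 0.12 to day 14 (2.54-fold, adjusted p = 5.07e-08). Most of the second rise lay between days 8 and 10 (1.08 ± 0.12, adjusted p = 1.87e-05), a step of 0.999 without day 10 replicate 1, just under the threshold. The 6 latest days, ordered 14, 20, 18, 10, 35 and 30 by mean, had no neighbours in that order apart by more than 0.24 (adjusted p from 0.221 to 0.972). Among their other pairs, day 30 was below day 14 (-0.37 ± 0.12, adjusted p = 0.01) and day 20 (-0.35 ± 0.12, adjusted p = 0.0256), and day 35 was below day 14 (-0.31 ± 0.12, adjusted p = 0.0266), all under 2-fold. The difference from day 14 to day 20 was -0.02 ± 0.12 with a 95% interval from -0.27 to 0.23.

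STAG3 is the meiotic STAG subunit, present with either meiotic kleisin. Stag3 1460229_at read 156 and 162 on day 0, 83.2 and 87.0 on day 3, 323 and 288 on day 6, 406 and 405 on day 8, and 689 and 663 on day 10. It went on to 1043 and 855 on day 14, 1251 and 1149 on day 18, 1327 and 1247 on day 20, 1301 and 1356 on day 30, and 1271 and 1259 on day 35. Only day 3 was below day 0, and all arrays from day 18 on were above all arrays up to day 14.

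Stag3 rose by 1.75 ± 0.10 from day 3 to day 6 (3.37-fold, adjusted p = 4.04e-10), after a difference of -0.84 ± 0.10 from day 0 to day 3 that had an adjusted p of 5.65e-05 but was under 2-fold. From day 0 to day 8 it rose by 1.31 ± 0.10 (2.48-fold, adjusted p = 9.62e-09), and from day 8 to day 14 by 1.20 ± 0.10 (2.30-fold, adjusted p = 1.33e-08). The difference from day 14 to day 20 was 0.44 ± 0.10 (adjusted p = 0.000806, under 2-fold). Days 18, 20, 30 and 35 were a plateau, with no pair more than 0.15 apart (adjusted p from 0.238 to 0.881). By day 35 Stag3 stood 7.64-fold and Smc1b 4.72-fold above day 0.

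SMC3, the arm shared by both sets, did not follow the meiotic genes. Smc3 1450950_at read 545 and 647 on day 0, 584 and 616 on day 8, and 540 and 444 on day 14, then 228 and 210 on day 18, 197 and 227 on day 20, and 238 and 233 on day 35. All arrays from day 18 on were below all arrays up to day 14. It fell by 1.13 from day 14 to day 18 (2.20-fold lower, SE 0.14, adjusted p = 3.1e-06) and then held within a narrow range, with no pair of days 18 to 35 more than 0.22 apart (adjusted p from 0.246 to 0.888). Without day 14 replicate 1 that step was -0.997, just under the threshold. The second probe set, 1450951_at, was dim, between 17.3 and 46.7 on all arrays, and did not pass in any interval.

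RAD21 is the kleisin of mitotic cohesin, and its 3 probe sets were all lower on day 20 than on day 14 but parted after that. Rad21 1416161_at read 2531 and 2065 on day 0, 2133 and 2091 on day 8, 1477 and 1493 on day 14, 686 and 736 on day 18, 530 and 445 on day 20, 222 and 194 on day 30, and 232 and 274 on day 35. It fell by 1.60 from day 14 to day 20 (3.03-fold lower, SE 0.12, adjusted p = 1.05e-09) and by 3.14 over the series (8.83-fold, SE 0.12, adjusted p = 4.22e-15). Its level before day 10 was flat, with no pair of days 0, 3, 6 and 8 more than 0.14 apart (adjusted p from 0.557 to 0.998).

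Rad21 1416162_at read 390 and 430 on day 0, 331 and 303 on day 14 and 111 and 122 on day 20, and then 326 and 315 on day 30 and 344 and 342 on day 35. It fell by 1.38 from day 14 to day 20 (SE 0.14, adjusted p = 6.59e-08) and rose by 1.497 ± 0.14 from day 20 to day 35 (2.82-fold, adjusted p = 3.48e-08). Over the same interval Rad21 1455938_x_at fell by 1.18 (2.26-fold lower, SE 0.24, adjusted p = 0.00058), from 112 and 125 to 38.0 and 60.5, a call lost without day 35 replicate 1 (-0.89). Rad21 1416162_at on day 35 differed from day 0 by -0.25 ± 0.14 (adjusted p = 0.112, 95% interval from -0.53 to 0.03), while 1455938_x_at fell by 2.85 between the same days. By the array maker's naming, an "_x_at" set may share probe sequence with other transcripts. For 1455938_x_at the fall from day 14 to day 20 was 1.44 in size, from arrays of 233 and 481, and without day 14 replicate 2 it was -0.93 and not called.

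SMC1A is the X-linked mitotic partner of SMC3. Smc1a 1417830_at declined through the whole series: 775 and 725 on day 0, 477 and 501 on day 8, 328 and 364 on day 14, 196 and 182 on day 20, and 143 and 144 on day 35. No single interval reached 2-fold (-0.61 ± 0.12 to day 8, -0.49 ± 0.12 to day 14, -0.84 ± 0.12 to day 20 and -0.38 ± 0.12 to day 35, adjusted p from 1.33e-05 to 0.0227), though with a common median per array the change to day 20 was -1.05 and called. From day 0 to day 35 it fell by 2.32 (SE 0.12, adjusted p = 1.37e-12). Smc1a 1417831_at fell by 2.43 over the series (5.38-fold lower, SE 0.27, adjusted p = 1.08e-07), and 1417832_at by 1.96 (SE 0.58, adjusted p = 0.00562). The last of these read 5.30 and 44.7 on day 35, and without day 35 replicate 1 its difference was -0.96 with an adjusted p of 0.17.

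STAG1 and STAG2 are the alternative STAG subunits of mitotic cohesin. Stag1 1431921_a_at read 508 and 514 on day 0, 632 and 773 on day 10, 649 and 684 on day 14, 399 and 367 on day 20, 264 and 174 on day 30, and 239 and 273 on day 35. Up to day 14 it did not decline, and its highest mean was on day 10. The differences were -0.79 ± 0.14 from day 14 to day 20 (adjusted p = 0.000121) and -0.57 ± 0.14 from day 20 to day 35 (adjusted p = 0.00325), both under 2-fold. With arrays set to a common median the first of these was called.

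Of the 6 Stag1 probe sets, 3 fell from day 14 to day 20: 1421940_at by 1.48 (SE 0.18, adjusted p = 9.12e-07), 1450420_at by 1.17 (SE 0.20, adjusted p = 7.42e-05) and 1421939_a_at by 1.17 (SE 0.19, adjusted p = 3.3e-05). The last was -0.96 and not called after quantile normalization or without day 14 replicate 1. Stag1 1421940_at had first gone from 134 and 122 on day 0 to 291 and 298 on day 10. Its difference from day 0 to day 8 was 0.91 ± 0.18 (adjusted p = 0.00115, under 2-fold). Stag1 1441724_at fell by 1.01 from day 20 to day 35 (SE 0.26, adjusted p = 0.00445), from 28.2 and 52.8 to 18.1 and 12.8, with both day 35 arrays at or below the 40th percentile. That call was lost under 6 alternatives, among them leaving out day 20 replicate 2 (-0.64) or day 35 replicate 2 (-0.85). Over the series Stag1 1434189_at fell by 1.96, 1441724_at by 2.29 and 1450420_at by 1.70, while the other 3 did not pass.

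Stag2, also X-linked, declined from day 3 on. Stag2 1421849_at read 1013 and 1007 on day 0, 1033 and 1023 on day 3, 657 and 702 on day 6, 572 and 591 on day 8, 455 and 514 on day 14, 237 and 242 on day 18, 214 and 169 on day 20, 91.7 and 101 on day 30, and 90.9 and 96.1 on day 35. Its level was lower by day 8 (-0.79 ± 0.11, adjusted p = 3.42e-05, under 2-fold). It fell by 1.31 from day 14 to day 20 (2.48-fold lower, SE 0.11, adjusted p = 6.57e-09) and by 3.33 from day 0 to day 35 (10.1-fold lower, SE 0.11, adjusted p = 6.98e-16). Stag2 1450396_at instead held between 241 and 365 up to day 14 and then read 39.7 and 40.1 on day 18, a fall of 2.39 in size (5.25-fold lower, SE 0.18, adjusted p = 6.02e-09). The decline of 1421849_at was thus spread over the series, and that of 1450396_at lay between days 14 and 18.

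In the interval from day 0 to day 8 the probe sets called higher were the 3 meiotic ones, and none of the 19 was lower; of all probe sets 2.45% were higher and 2.42% lower. The median difference was 1.31 over the 3 meiotic, -0.14 over the 14 mitotic and -0.03 over all probe sets tested. With a common median per array, Stag1 1421939_a_at (1.02) and 1421940_at (1.01) were called higher as well. From day 8 to day 14, Smc1b and Stag3 were higher and none was lower, beside 3.86% and 2.1% of all probe sets; the medians were 1.20 meiotic, -0.23 mitotic and -0.02 over all. Rec8 differed by 0.24 ± 0.31 there (adjusted p = 0.71, 95% interval from -0.40 to 0.89).

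From day 14 to day 20, 10 of the 19 were lower and none higher, beside 12% of all probe sets lower and 14.7% higher. The 10 were 8 mitotic probe sets, all of Rad21, Stag1 or Stag2, with Smc3 1450950_at and Rec8. No Smc1a probe set was called (-0.84, -0.99 and -0.64), nor was the brightest of Stag1, 1431921_a_at (-0.79). Probe sets of the same gene are not separate units. All 14 mitotic probe sets had both day 20 arrays below both day 14 arrays, as did 39.1% of all probe sets tested, and their median was -1.17, against -0.04 over all. Most of this lay in the step from day 14 to day 18, with 7 of 19 lower (5 mitotic, Smc3 1450950_at and Rec8) and none higher, beside 5.15% lower and 11.7% higher in all. Without the day 18 array of conflicting label 6 were lower: Rec8 (-1.03, adjusted p = 0.0558) and Stag1 1421939_a_at (-0.84) lost the call and Stag2 1421849_at (-1.01) gained it. Rec8 also lost it without day 14 replicate 2 (-0.91), as did Stag1 1421939_a_at without day 14 replicate 1 (-0.88).

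From day 20 to day 35, Rec8 and Rad21 1416162_at were higher, and Rad21 1455938_x_at and Stag1 1441724_at were lower, beside 6.71% and 7.28% of all probe sets. Rad21 1416161_at (-0.92 ± 0.12) and Stag2 1421849_at (-0.97 ± 0.11) were just under 2-fold in this interval, and both were called without day 20 replicate 2 (-1.05 and -1.13) or without day 35 replicate 2 (-1.04 and -1.003). From day 0 to day 35, 3 of 19 were higher and 11 lower (10 mitotic and Smc3 1450950_at), beside 22.9% and 28.2%. The medians were 2.93 over the meiotic, -2.13 over the mitotic and -0.13 over all probe sets. These comparisons share arrays and are not independent of each other.

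**Figure D2:**
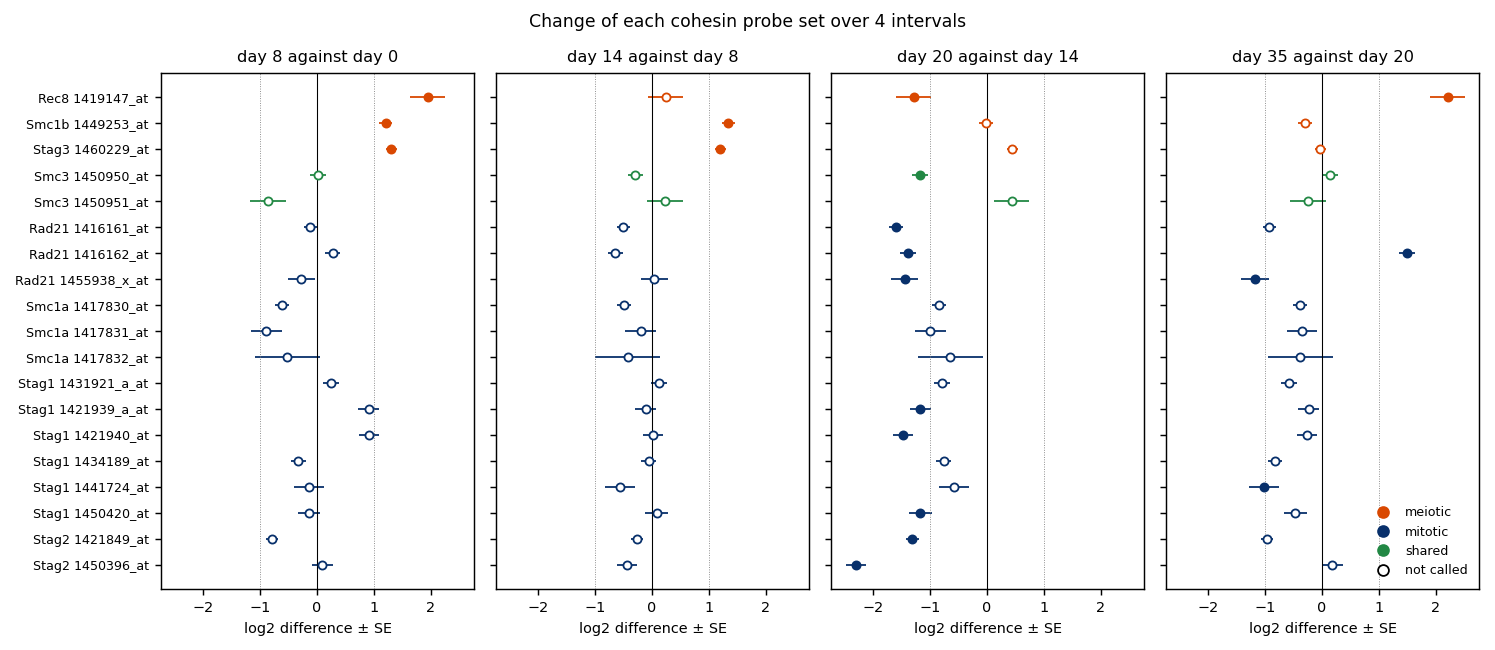
Log2 difference (x axis, ± SE) of each cohesin probe set over 4 intervals, coloured by meiotic, mitotic or shared subunit; filled points were called and open points were not, and dotted lines mark a 2-fold difference. The 3 meiotic points stand to the right in the first panel, and all 14 mitotic points lie left of 0 in the third.

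The meiotic paralog was then set against its mitotic counterpart within each array, taking for each gene its brightest probe set, over 4 pairs and 4 intervals, 16 tests in all. The mitotic paralog's log2 value was subtracted from that of every probe set, the fit repeated, and p-values adjusted over all probe sets. The change of the ratio, not its level, is interpretable, since probe sets differ in brightness. All 4 ratios rose from day 0 to day 8, when 11.7% of all probe sets rose against the same references. From day 8 to day 14, 3 of 4 rose (8.32% of all), from day 14 to day 20, 2 of 4 (52.9%), and from day 20 to day 35, 1 of 4 (23.3%). The high shares of the later intervals come with references that themselves declined.

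For the kleisins, the ratio of Rec8 to Rad21 rose by 2.07 ± 0.35 to day 8 (4.19-fold, adjusted p = 0.000153), with Rec8 at 1.95 and Rad21 at -0.11. It was 0.75 ± 0.35 from day 8 to day 14 (adjusted p = 0.122) and 0.31 ± 0.35 from day 14 to day 20 (adjusted p = 0.405, 95% interval from -0.41 to 1.03). Both kleisins declined in that last interval. From day 20 to day 35 the ratio rose by 3.14 ± 0.35 (8.80-fold, adjusted p = 1.95e-08), but with Rad21 1416162_at as the reference it was 0.72 (adjusted p = 0.057), so this value depends on which Rad21 probe set is used. With values floored at the pooled median, the Rec8 to Rad21 rise to day 8 was 0.80 and not called.

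For the SMC1 pair, the ratio of Smc1b to Smc1a rose by 1.82 ± 0.16 to day 8 (3.52-fold, adjusted p = 1.16e-08) and by 1.84 ± 0.16 from day 8 to day 14 (3.57-fold, adjusted p = 5.4e-09). Both genes contributed, Smc1b at 1.21 and 1.35 and Smc1a at -0.61 and -0.49. It was 0.82 ± 0.16 from day 14 to day 20 (adjusted p = 0.00016, under 2-fold) and 0.08 ± 0.16 from day 20 to day 35 (adjusted p = 0.754, 95% interval from -0.25 to 0.41). Against the variable Smc1a 1417832_at the first 2 changes were 1.73 and 1.77, neither called. The spread of that probe set enters every test of its fit, and p-values were adjusted over all of these tests. Without day 14 replicate 1 the change to day 20 was 1.04 and called.

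For the STAG subunits, the ratio of Stag3 to Stag2 rose by 2.10 ± 0.14 to day 8 (4.29-fold, adjusted p = 9.67e-11), 1.47 ± 0.14 to day 14 (2.76-fold, adjusted p = 3.83e-08) and 1.75 ± 0.14 to day 20 (3.37-fold, adjusted p = 1.75e-10). The change to day 35 was 0.94 ± 0.14 (adjusted p = 1.01e-05, under 2-fold), and 1.06 and called without day 20 replicate 2. The ratio of Stag3 to Stag1 rose by 1.06 ± 0.19, 1.07 ± 0.19 and 1.23 ± 0.19 over the same 3 intervals (adjusted p = 0.000472, 0.000242 and 5.45e-06), and changed by 0.55 ± 0.19 to day 35 (adjusted p = 0.0412, under 2-fold). From day 14 to day 20 Stag3 itself was at 0.44, with Stag2 at -1.31 and Stag1 at -0.79. The larger part of both rises in that interval was thus the decline of the reference. The second Stag2 probe set, 1450396_at, changed by 0.10, -0.44, -2.30 and 0.19 over the 4 intervals (SE 0.18 each). The reference used, 1421849_at, changed by -0.79, -0.26, -1.31 and -0.97. The size of each Stag3 to Stag2 change therefore depends on which Stag2 probe set is used. The rise of Stag3 to Stag1 to day 8 was 0.40 with Stag1 1421939_a_at or 1421940_at as reference (adjusted p = 0.0827 and 0.0736), and was 0.96 without day 8 replicate 2. From day 8 to day 14 it was 0.89 without day 14 replicate 1 and 0.97 without day 8 replicate 1, neither called.

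**Figure D3:**
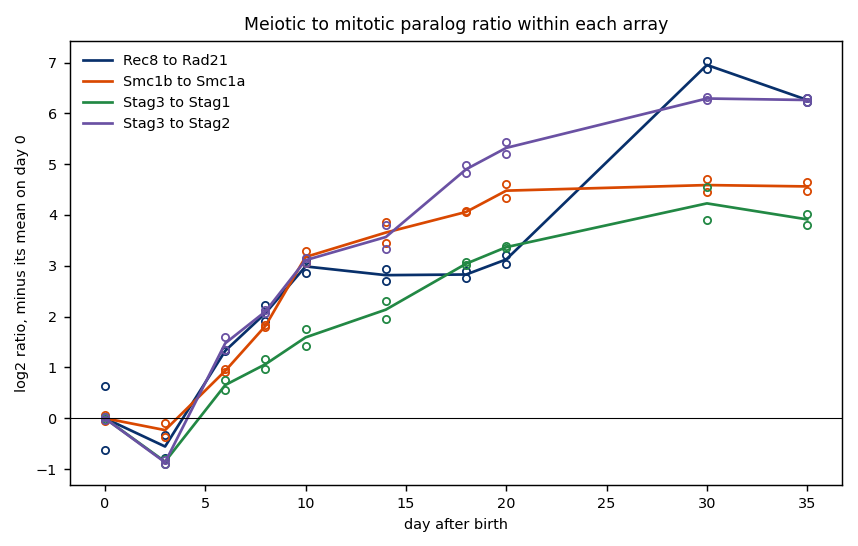
Log2 ratio of each meiotic paralog to its mitotic counterpart within an array, less its mean on day 0, against day after birth; circles are arrays and lines join day means. Smc1b to Smc1a stays between 4.48 and 4.59 from day 20, while Rec8 to Rad21 stays between 2.8 and 3.1 from day 14 to day 20 and reaches 6.95 on day 30. Each gene is shown by its brightest probe set, which for Rad21 is 1416161_at. Rec8 was dim on day 0, and the Rec8 to Rad21 values depend on this and on the Rad21 probe set used.

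Of the mitotic subunits, Smc1a and Stag2 lie on the X chromosome, which is transcriptionally silenced in pachytene spermatocytes. From day 14 to day 20, 173 of 560 X-linked genes were lower (30.9%, median -0.72), against 1654 of 15762 genes on other chromosomes (10.5%, median 0.03). Smc1a 1417830_at at -0.84 was near the X-linked median and Stag2 1421849_at at -1.31 was below it. The other Stag2 probe set, 1450396_at, was at -2.30. The autosomal Rad21 1416161_at, at -1.60, lay between the 2 Stag2 probe sets. From day 14 to day 18 the X-linked median was -0.44 and that of other chromosomes 0.06. What part X-linkage had in the 2 genes' values was not tested.

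Cohesin is loaded, released, acetylated, protected and cut by a set of regulators, of which 20 of a list of 21 were measured. From day 0 to day 8, 1 was higher (Chtf18, 1.97 ± 0.23), and from day 8 to day 14, 1 (Meikin). From day 14 to day 20, 3 were higher and 4 lower, from day 20 to day 35, 1 was higher and 1 lower, and from day 0 to day 35, 4 were higher and 7 lower. Medians of the list were 0.09, -0.27, -0.05, -0.23 and 0.04 in these comparisons, beside -0.03, -0.02, -0.04, -0.17 and -0.13 over all probe sets. The shares called over all probe sets, given above, were 14.7% higher and 12% lower from day 14 to day 20, and 22.9% and 28.2% from day 0 to day 35, so the list's counts of 3 and 4, and of 4 and 7, of 20 are not far from the background. With a common median per array, 7 were lower from day 14 to day 20.

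The 4 regulators with the widest range of day means were Meikin, Haspin, Sgo1 and Dscc1. Meikin, a kinetochore protein of the first meiotic division that protects centromeric REC8 with shugoshin, rose from a mean of 9.20 on day 8 to 93.8 on day 14 (2.73 ± 0.45, adjusted p = 0.00017; 1.44 with values floored at the pooled median) and stood at 277 on day 35. The Meikin mean of day 8 lay below the 40th percentile of every array, so the size of its rise depends on how low values are treated. Haspin, a histone H3 kinase abundant in haploid germ cells, rose from 118 on day 14 to 781 on day 20 (2.64 ± 0.18, adjusted p = 3.79e-10) and 1327 on day 35. Sgo1, the shugoshin that guards centromeric cohesin in mitosis, fell by 1.37 over days 14 to 20 (132 to 46.6, SE 0.30, adjusted p = 0.000952). Dscc1, part of an alternative clamp loader that aids cohesion at replication forks, went from 266 on day 0 to 50.7 on day 20 and rose by 2.71 ± 0.14 to 375 on day 35 (adjusted p = 1.74e-11).

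Beyond that rule, and chosen after their values were seen, the other regulators lower from day 14 to day 20 were Pds5a (-1.14 ± 0.20), Pds5b (-1.05 ± 0.13) and Esco2 (-1.67 ± 0.18), and the other 1 higher was Plk1 (1.13 ± 0.11). PDS5A and PDS5B bind the kleisin and tune release of the ring, and ESCO2 acetylates SMC3 during replication. Ctcf, which positions cohesin at chromatin loop anchors, was lower on day 35 than on day 0 (-2.32 ± 0.13, adjusted p = 4.66e-12). The rise of Meikin from day 14 to day 20 (1.29 ± 0.45, adjusted p = 0.0244) lost its call in 6 alternatives, among them leaving out day 14 replicate 1, day 14 replicate 2 or day 20 replicate 2 (0.99).

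**Figure D4:**
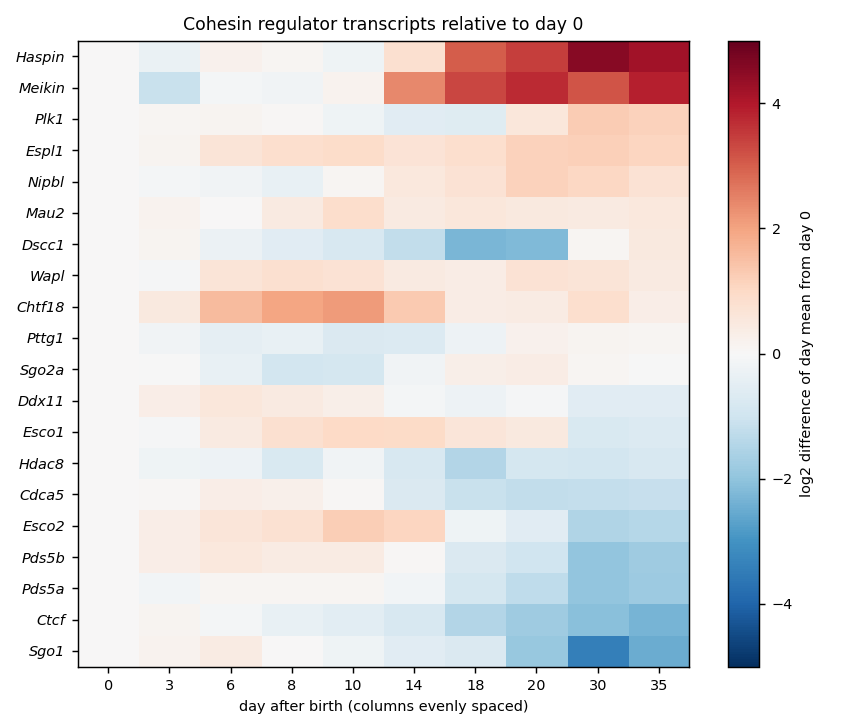
Log2 difference of each day's mean intensity from day 0 (colour) for the 20 cohesin regulators measured (rows, ordered by day 35) against day after birth (columns, evenly spaced). Haspin and Meikin are the strongest late rises, Sgo1 and Ctcf the strongest late declines, and Dscc1 dips to 47.9 on day 18 before its mean of 375 on day 35.

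The other SMC complexes, condensin and SMC5/6, had 14 genes measured. Over the series, 2 were higher and 3 lower, beside 22.9% and 28.2% of all probe sets, and no interval between had more than 1 called in a direction. Smc2, the core arm of condensin, fell by 2.35 from day 0 to day 35 (868 to 164, SE 0.09, adjusted p = 1.33e-14). Smc5, an arm of the SMC5/6 repair complex, rose by 2.31 ± 0.11 (197 to 1008, adjusted p = 2.27e-13), with 1.09 ± 0.11 of it by day 8, a call lost without day 0 replicate 1. With a common median per array, 6 of the 14 were lower on day 35 than on day 0.

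The proteins of the synaptonemal complex and meiotic chromosome axis, which assemble on meiotic cohesin, had 9 genes measured. Up to day 8, 5 of 9 were higher (median 1.11), beside 2.45% of all probe sets, and from day 8 to day 14, 8 of 9 (median 2.04), beside 3.86%. From day 14 to day 20, 1 was higher (14.7% of all), and from day 20 to day 35, 2 were lower (median -0.74, 7.28% of all). The 2 with the widest range were Hormad1 and Sycp2, both axis proteins. Hormad1 rose by 3.83 ± 0.33 from day 8 to day 14 (mean 81.7 to 1311, adjusted p = 3.6e-08) and fell by 1.25 from day 20 to day 35 (1412 to 589, SE 0.33, adjusted p = 0.00525). Sycp2 rose by 1.60 ± 0.10 to day 8 (70.8 to 231, adjusted p = 6.36e-10) and by 3.05 ± 0.10 to day 14 (to 1972, adjusted p = 1.4e-14).

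Among 14991 other tested genes with 1 symbol, those most alike in profile to each meiotic subunit were found by Pearson r of log2 day means over the 10 days. For Smc1b these were Meioc (0.99), Plekhg4 (0.987), Otop2 (0.983), Sycp1 (0.983) and Stim1 (0.981). For Stag3 they were Lims2 (0.992), Mtor (0.989), Med27 (0.985), Ttc7 (0.982) and Dhx40 (0.981). For Rec8, with its 2 crests, they were Scube2 (0.975), Itpk1 (0.956), Nr6a1 (0.953), Pim2 (0.948) and Trappc12 (0.947). Between members, r was 0.962 for Smc1b and Stag3, 0.71 for Rec8 and Smc1b and 0.744 for Rec8 and Stag3. Among the mitotic genes it was 0.988 for Smc1a and Stag2, 0.978 for Rad21 and Stag2, 0.961 for Rad21 and Smc1a, 0.918 for Rad21 and Stag1, 0.833 for Stag2 and Stag1, and 0.778 for Smc1a and Stag1. These values share the same 20 arrays and describe them only.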

How the data were processed

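Total RNA of 20 testis samples (2 per day, 10 days) was extracted with Trizol, labelled with biotin and hybridised to single-channel 3′ arrays, per the labels. The deposited table holds 1 linear intensity per probe set and array. Which software summarised and scaled them is not given in the sources, and the deposited values carry no detection calls. They were used without further normalization. The precision is limited by 2 arrays a day. The table lists 45101 probe sets, from which 64 control sets were dropped. Symbols came from the platform annotation (34945 probe sets with 1 symbol), and chromosomes and promoters from RefSeq tables of GRCm38.p6; the array table names no genome build.

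Probe sets above the 40th percentile of their array on at least 2 arrays were kept (37292). Values were taken as log2(intensity + 7.83), the pooled 20th percentile; the constant understates changes of dim probe sets. limma 3.58.1 in R 4.3.3 (lmFit, eBayes with a trend) fitted day as a factor to all 20 arrays, with 10 residual degrees of freedom and 9.37 from the prior. The two-sided p-values were adjusted by Benjamini-Hochberg over all 37292, with a call needing an adjusted p below 0.05 and a log2 difference of 1 or more in size. Promoters and plots used Python 3.11.15 and matplotlib 3.10.9. The scripts were tested on simulated data. Deviations of same-numbered arrays correlated at -0.0267 to 0.0907 over 45 pairs of days, with 0 over 0.1. These values show no strong effect shared by replicate number. They cannot tell whether same-numbered arrays were handled together.

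All probe sets of the members are named. Of the regulators the 4 with the largest range of day means are named, and 2 of each other list described. For each meiotic member the 5 genes of highest r are given. Members and lists were chosen with earlier results of these data known. Alternatives covered scaling, the added constant, dim filters, the variance trend, array weights, a replicate block, the threshold, the arrays and the probe sets used.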

Additional observations from a re-analysis of the deposited data

How the results depend on the processing

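Over 282 differences of single cohesin probe sets and paralog pairs and 9034 alternatives to them, 57 were called, 19 of these lost the call in at least 1 alternative, 22 uncalled ones gained one and 0 reversed. The number of members called depends on the unit counted. With 1 probe set a gene it was 8 for the time course, 4 from day 14 to day 20, 1 from day 20 to day 35 and 7 from day 0 to day 35; with the mean of a gene's probe sets it was 7, 3, 1 and 7. These settings hold 8 units and not 19. With arrays set to a common median, 5 members were called from day 0 to day 8. In that setting 13 were lower from day 14 to day 20, against 10 in the main fit. From day 14 to day 18, 10 were lower, against 7. Leaving out each array in turn gave 17 to 18 members for the time course, 3 to 4 from day 0 to day 8, 2 from day 8 to day 14, 9 to 11 from day 14 to day 20, 3 to 5 from day 20 to day 35 and 13 to 16 from day 0 to day 35. It gave 3 to 4, 2 to 3, 2 to 3 and 1 to 2 paralog pairs over the 4 intervals. The replicate block changed none of these counts (17 members for the time course, 3, 2, 10, 4 and 14 in the 5 comparisons, and 4, 3, 2 and 1 pairs).

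Scaling to a common median moved the median of all probe sets from -0.04 to -0.21 for day 20 against day 14 and from 0.03 to -0.21 for day 18 against day 14. The share of calls that were higher moved from 54.9% to 39.7% and from 69.4% to 42%, and from 50.3% to 61.7% for day 8 against day 0. Quantile normalization gave 54.3% for day 18 against day 14. The reference probe set of a mitotic paralog was varied after the data were seen. With no detection calls and 2 arrays a day, levels of Rec8 on days 0, 3 and 20 are not resolved from dim signal.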
